A study of Daphnia magna with 12 samples.

Results

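The gene counts of whole Daphnia magna exposed to cholinium chloride (CholCl) were compared with those of animals exposed to 1-ethyl-3-methylimidazolium chloride (C2mimCl). These 6 libraries, 3 for each salt, were taken from the 12 libraries of the series by their labels, and every gene row of the count files (46334) was a member of the comparison. CholCl and C2mimCl were each given at the EC20 (the concentration with 20% of the maximal effect of a toxicity test) for 48 h. Libraries of C12mimCl, a salt of the imidazolium type with a dodecyl chain, also at its EC20, and of unexposed animals in blank ASTM medium (Control) were used to estimate the spread and as levels beside those of the compared salts. Each library came from 90 active animals of 1 vessel, pooled. Each vessel held 120 neonates of the 3rd brood, under 10 h old at the start, in 500 mL without food, so the groups shared age, brood and starvation and the values describe animals still active at the end. The molar concentrations, the endpoint behind the EC20 and the clone of the animals were not stated in the labels used here.

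Daphnia magna, a freshwater crustacean that reproduces clonally in culture, is a standard animal of aquatic toxicity tests. Both compounds belong to the ionic liquids, organic salts proposed as solvents, and both pair a small water-soluble cation with chloride. The cation of C2mimCl is an aromatic imidazolium ring that carries a methyl and an ethyl group. Cholinium is choline itself, a quaternary ammonium ion with a hydroxyethyl group, which animals build into membrane phospholipids and into the neurotransmitter acetylcholine. Since the salts were matched by effect and not by molar amount, their comparison is one of responses at the same EC level, and this is the only pair of salts compared here.

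Between 12502019 and 15292524 reads fell in genes in each of the 6 libraries, with 19493 to 20400 genes with at least 1 read. The files give genes as identifiers without names, and 0 of these matched the reference table, so neither gene functions nor markers of tissues could be read from these data. Genes are therefore described as groups set by the size and direction of their difference, with 5 of them by identifier. Levels are given as CPM, the reads of a gene after libraries are brought to equal size, which is not corrected for gene length, so levels are compared between libraries and not between genes. In pooled whole animals, fewer cells of a type and less RNA per cell cannot be told apart.

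C2mimCl replicate 1 stood apart from its group. The root mean square difference in log2 CPM over the genes tested was 1.26 between C2mimCl replicates 1 and 2, 1.17 between replicates 1 and 3, and 0.476 between replicates 2 and 3. Among the CholCl libraries it was 0.526 to 0.797, and between libraries of different salts 1.11 to 1.61, so C2mimCl replicate 1 was farther from its own group than CholCl replicate 3 was from C2mimCl replicate 3. The median standard deviation of log2 CPM was 0.188 after CholCl, 0.368 after C2mimCl and 0.279 in Control, and 0.135 after C2mimCl without replicate 1. CholCl replicate 3 was the nearest of its group to the C2mimCl libraries, at 36.3 on the first principal component against 92.6 and 103 for the other CholCl libraries and -88.6 to -55.9 for the C2mimCl libraries. That component held 64.6% of the variance of the 6 libraries. The second, with 24.4%, placed C2mimCl replicate 1 at -105 and the other 5 libraries between -1.86 and 47.5. Results are given below with and without C2mimCl replicate 1.

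Of 15847 genes tested, 1834 (11.6%) were higher and 2791 (17.6%) lower after CholCl than after C2mimCl, together 29.2% (quasi-likelihood test in edgeR, Benjamini-Hochberg adjusted p below 0.05). When C2mimCl replicate 1 was left out, 1805 of 16212 genes (11.1%) were higher and 2568 (15.8%) lower, together 27%. Of the genes called with all libraries, 1429 higher and 2155 lower genes were called again in the same direction without that library, and 0 were called in the opposite direction. The counts depended more on the CholCl libraries. They were 914 higher and 1423 lower without CholCl replicate 1, and 1193 and 1781 without CholCl replicate 2. Without both C2mimCl replicate 1 and CholCl replicate 3, a choice made after the data were seen, they were 1445 and 2434. The balance of directions depended on scaling. Under TMM scaling 60.3% of the called genes were lower. Upper-quartile scaling called 3451 higher and 2101 lower genes, 37.8% of them lower, and shifted the median log2 difference over all genes to 0.13, against -0.0731 under TMM.

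**Figure D1:**
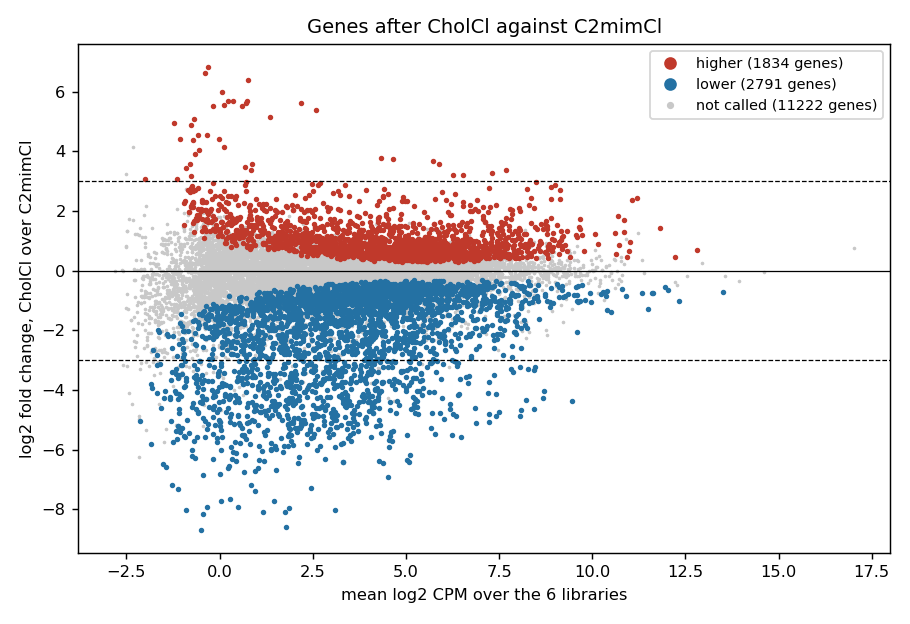
Log2 fold change of CholCl over C2mimCl (vertical) against the mean log2 CPM over the 6 libraries (horizontal), 1 point per gene tested, with called genes coloured and dashed lines at 8-fold. Below the lower dashed line lie 752 called genes, against 41 above the upper one, and the falls reach across most of the range of levels.

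The directions differed most in the size of the changes. Genes higher after CholCl had a median difference of 1.802-fold, with an interquartile range of 1.52-fold to 2.46-fold. Genes lower after CholCl had a median of 3.11-fold, with an interquartile range of 1.93-fold to 8.996-fold. At 2-fold or more 726 genes were higher and 2010 lower, at 4-fold or more 177 and 1189, at 8-fold or more 41 (0.259%) and 752 (4.75%), and at 32-fold or more 15 and 193. Falls were 60.3% of all calls and 73.5%, 87.0% and 94.8% of those of at least 2-fold, 4-fold and 8-fold, so their share grew with each of these steps. Leaving out C2mimCl replicate 1 gave 67 genes (0.413%) that were at least 8-fold higher and 774 (4.77%) at least 8-fold lower, and 36 and 643 of them were also in the lists with all libraries. The excess of large falls was seen with upper-quartile scaling as well, with 51 genes higher and 686 lower by at least 8-fold. The 8-fold rises numbered 62 without C2mimCl replicate 3, and the 8-fold falls 451 without CholCl replicate 1.

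The 752 genes at least 8-fold lower after CholCl had moderate median levels in C2mimCl animals and low ones in CholCl animals. Their median level was 0.675, 0.312 and 2.49 CPM in CholCl replicates 1, 2 and 3, against 10.1, 28.1 and 28.2 CPM in C2mimCl replicates 1, 2 and 3, with 22.7, 15.9 and 27.9 CPM in the Control libraries. The CholCl libraries all lay below the C2mimCl libraries, which the choice of these genes largely sets. C2mimCl replicate 1 was the lowest of its group. Below 1 CPM lay 424, 507 and 249 of these genes in the CholCl libraries, against 84, 47 and 33 in the C2mimCl libraries. Together the genes held 0.346%, 0.225% and 0.776% of gene reads after CholCl, against 4.25%, 10.9% and 9.69% after C2mimCl. In Control they held 5.75% to 7.77%.

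Within that group the libraries varied in an ordered way. CholCl replicate 3 had the highest level of the CholCl libraries in 621 of the 752 genes (82.6%), and C2mimCl replicate 1 had the lowest level of the C2mimCl libraries in 563 (74.9%). The fall was therefore shallower in CholCl replicate 3 than in the other CholCl libraries for most members. Since these values also chose the genes, the list was drawn again without each CholCl library in turn, and the library left out was set beside those used. Chosen without CholCl replicate 3 (838 genes), the median log2 level relative to the Control mean was -2.37 in that library, against -3.76 and -4.05 in replicates 1 and 2. Chosen without CholCl replicate 1 (451 genes), it was -3.70 in that library, against -3.99 and -2.60 in replicates 2 and 3, and chosen without CholCl replicate 2 (519 genes), it was -4.14, against -3.78 and -2.61 in replicates 1 and 3. CholCl replicate 3 thus had the shallowest fall in each of these lists, whether or not it helped to choose them. After C12mimCl the 752 genes had median levels of 0.569, 0.609 and 0.918 CPM.

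Most of the 41 genes at least 8-fold higher after CholCl were of low abundance. By mean over the 6 libraries, 11 were under 1 CPM, 20 from 1 to 10, 4 from 10 to 100 and 6 over 100 CPM. The median level of the 41 was 3.83, 4.16 and 5.71 CPM in the CholCl libraries. It was 0.0602, 0.165 and 0.252 CPM in the C2mimCl libraries, with 1.46, 2.16 and 0.632 CPM in Control. All CholCl libraries lay above all C2mimCl libraries in this median, which the choice of these genes largely sets. The CholCl libraries also lay above all Control libraries, and Control lay between CholCl and C2mimCl. After C12mimCl the 41 genes had median levels of 0.127, 0.0761 and 0.0765 CPM, below all Control libraries as well. The genes held 0.254%, 0.268% and 0.231% of gene reads after CholCl, against 0.0301%, 0.0195% and 0.0177% after C2mimCl. The 67 genes called without C2mimCl replicate 1, which then had no part in their choice, had medians of 3.60, 3.95 and 5.14 CPM after CholCl, against 0.361, 0.165 and 0.252 CPM in C2mimCl replicates 1, 2 and 3.

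The position of the unexposed animals was then described for each group of genes. These comparisons share libraries with each other, so each one's own values are given side by side and no overlap was tested. Of the 2791 genes lower after CholCl than after C2mimCl, CholCl against Control called 2186 lower and 4 higher, where 22.4% and 15.9% of all genes tested were called lower and higher. C2mimCl against Control called 30 of the 2791 lower and 49 higher, where 0.656% and 0.776% of all genes were. Their median log2 fold change against Control was -1.52 after CholCl and 0.16 after C2mimCl, beside -0.0929 and 0.00747 over all genes tested. The mean log2 level of Control was nearer to that of C2mimCl than to that of CholCl in 2510 of the 2791 genes (89.9%), and in 73.4% of all genes tested. Of 2568 lower genes called without C2mimCl replicate 1, CholCl against Control called 2160 lower and 17 higher, where 28.6% and 20.4% of all genes tested were. C2mimCl against Control then called 199 of the 2568 lower and 331 higher, where 9.33% and 5.75% of all genes were, so the small number of calls between C2mimCl and Control with all libraries rested on that library.

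Of the 1834 genes higher after CholCl than after C2mimCl, CholCl against Control called 1398 higher and 1 lower, where 15.9% and 22.4% of all genes tested were. C2mimCl against Control called 26 of the 1834 higher and 21 lower, where 0.776% and 0.656% of all genes were. The median log2 fold change of the 1834 genes against Control was 0.79 after CholCl and -0.0410 after C2mimCl. Control was nearer to C2mimCl in 1590 of them (86.7%), beside 73.4% of all genes tested. Of 1805 higher genes called without C2mimCl replicate 1, CholCl against Control called 1341 higher and 39 lower, where 20.4% and 28.6% of all genes were. C2mimCl against Control then called 120 of the 1805 higher and 271 lower, where 5.75% and 9.33% of all genes were. In the fit without C2mimCl replicate 1, Control was nearer to C2mimCl in 2180 of 2568 lower genes (84.9%), 1348 of 1805 higher genes (74.7%) and 66.4% of all genes tested. In both directions Control was thus nearer to C2mimCl than to CholCl in most of these genes, which does not say that C2mimCl and Control were alike.

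The large rises differed in this respect from the large falls. Among the 752 genes at least 8-fold lower after CholCl, Control was nearer to C2mimCl in 744 (98.9%), beside 73.4% of all genes tested. CholCl against Control called 699 of the 752 lower and 0 higher, where 22.4% and 15.9% of all genes tested were. Among the 41 genes at least 8-fold higher, Control was nearer to C2mimCl in 17 and nearer to CholCl in 24. These log2 levels were taken with a small constant added to the CPM. The C2mimCl medians of the 41 genes, 0.0602 to 0.252 CPM, were near the floor, so this split depends on few reads and on that constant. In the large falls CholCl was the low group, so the lists differ in which salt was low. Control lay between the salts in 34 of the 41 (82.9%), beside 35.1% of all genes tested. Genes chosen for a wide gap between the salts leave more room for Control inside it, so that share is partly set by the choice. CholCl against Control called 30 of the 41 higher, where 15.9% of all genes tested were. C2mimCl against Control called 9 lower and 0 higher, where 0.656% and 0.776% of all genes were, and left 32 uncalled. In the fit without that C2mimCl library (replicate 1), Control lay between the salts in 52 of 67 such genes, beside 31.7% of all genes tested. C2mimCl against Control then called 35 of the 67 lower and 0 higher, where 9.33% of all genes were called lower and 5.75% higher. The large rises thus held genes called higher after CholCl than in Control and genes called lower after C2mimCl than in Control. How many were of the latter kind rested on C2mimCl replicate 1.

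Where Control stood relative to C2mimCl in the large falls rested on C2mimCl replicate 1. With all libraries Control lay above both salts in 335 of the 752 genes (44.5%) and between them in 415 (55.2%), beside 35.7% and 35.1% of all genes tested. Without that library Control lay above both in 100 of 774 genes (12.9%) and between them in 674 (87.1%), beside 36.4% and 31.7% of all genes tested. C2mimCl against Control then called 103 of the 774 higher and 23 lower, where 5.75% and 9.33% of all genes were. In these 774 genes, the median log2 level relative to the Control mean was -3.39, -3.86 and -2.37 in the CholCl libraries, against 0.98 and 0.80 in C2mimCl replicates 2 and 3. In C2mimCl replicate 1, whose values had no part in choosing them, it was -1.07, between its group and the CholCl libraries and below all 3 Control libraries, which lay at 0.0282, -0.474 and 0.48. The other C2mimCl libraries did not stand out in this way on genes chosen without them. Chosen without C2mimCl replicate 2 (684 genes), the median was 0.50 in that library, against -0.561 and 0.68 in replicates 1 and 3, and chosen without C2mimCl replicate 3 (687 genes), it was 0.67, against -0.609 and 0.65 in replicates 1 and 2.

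**Figure D2:**
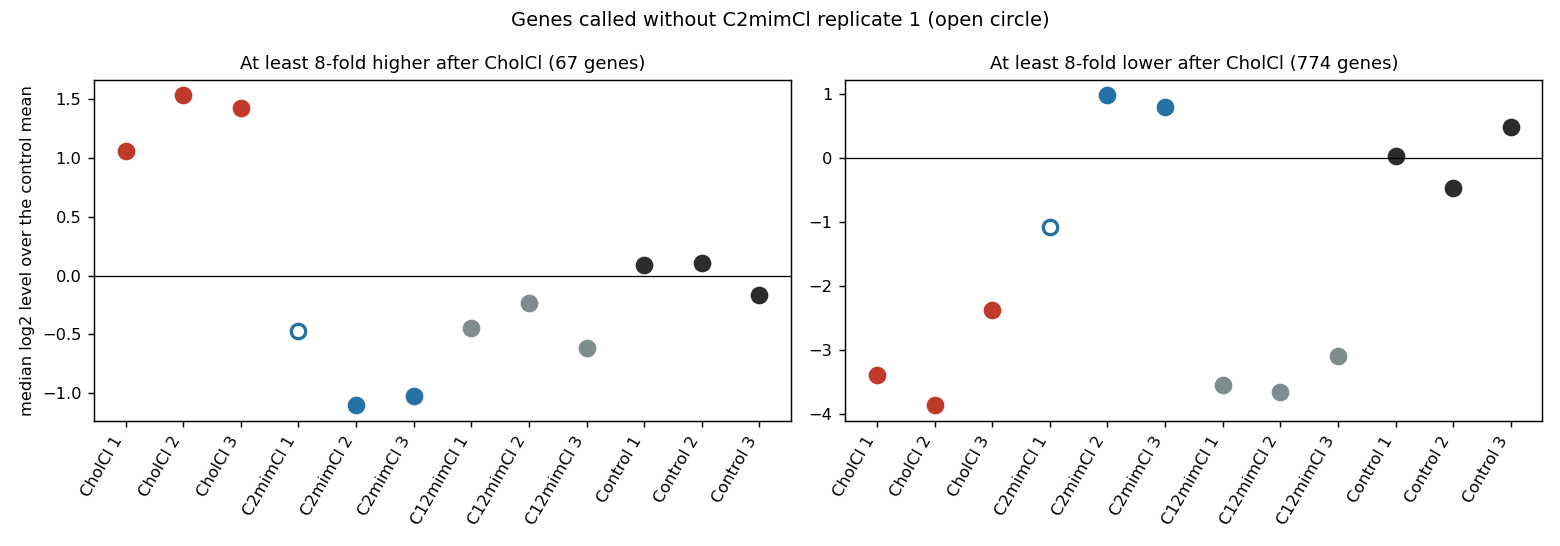
Median log2 level relative to the Control mean (vertical) in each of the 12 libraries (horizontal) of 67 genes at least 8-fold higher and 774 genes at least 8-fold lower after CholCl than after C2mimCl, called without C2mimCl replicate 1 (open circle). In the lower genes that library lies at -1.07, between C2mimCl replicates 2 and 3 at 0.98 and 0.80 and the CholCl libraries at -3.86 to -2.37.

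Each library was also placed on genes called without it, on a scale where 0 is the mean of the remaining libraries of its own group and 1 the mean of the other salt. The median place was -0.0749, 0.0518 and 0.15 for CholCl replicates 1, 2 and 3, and 0.19, 0.24 and 0.19 for C2mimCl replicates 1, 2 and 3. Each median thus lay nearer to the library's own group. For C2mimCl replicates 2 and 3 the mean of the remaining libraries included replicate 1, which stood apart. The places of the C2mimCl libraries, and the shares below, are therefore not on the same footing. The genes nearer to their own group were 98.3%, 93.8% and 86.6% for the CholCl libraries, against 68.2%, 74.9% and 82.7% for the C2mimCl libraries. C2mimCl replicate 1 had the widest interquartile range, from -0.410 to 0.64, and lay beyond the CholCl mean in 484 of 4373 genes (11.1%), against 2.92% and 1.12% of the genes for replicates 2 and 3. It lay nearer to its own group in 75.01% of the genes higher after CholCl and in 63.4% of those lower.

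**Figure D3:**
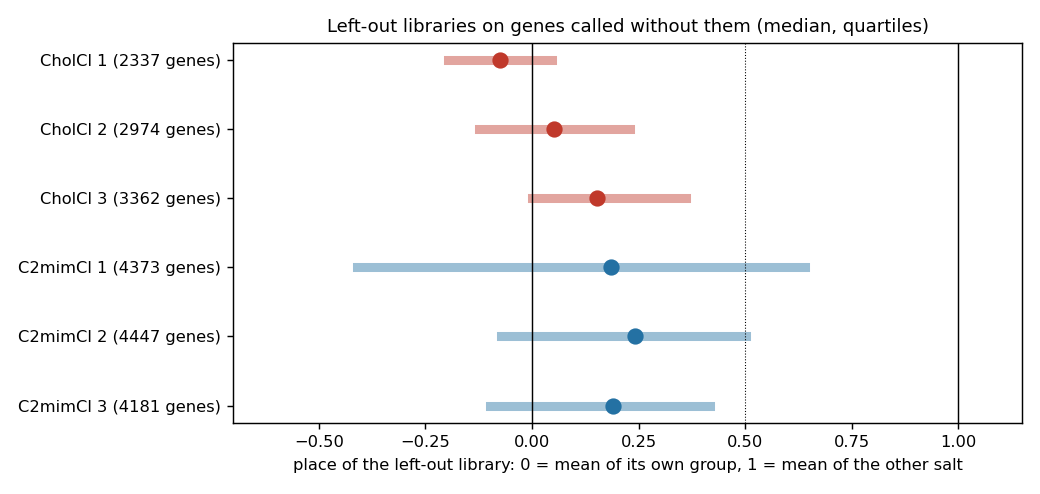
Place of each of the 6 libraries on the genes called without it (horizontal; 0 is the mean of its own group, 1 that of the other salt; dotted line at the middle), with the median as a point and the interquartile range as a bar, 1 row per library. The C2mimCl replicate 1 bar is the widest, from -0.410 to 0.64.

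Differences were called at every level of abundance. Among genes with a mean under 1 CPM over the 6 libraries 4.47% were higher and 6.96% lower after CholCl, from 1 to 10 CPM 8.38% and 17.0%, from 10 to 100 CPM 14.2% and 20.1%, and over 100 CPM 20.2% and 21.5%. The median standard error of the log2 difference was 0.58 in the lowest class and 0.19 in the highest, so fewer calls could be made among rare transcripts. The share at least 8-fold lower was 3.09%, 4.42%, 5.19% and 5.94% from the lowest class to the highest. Large falls were therefore not restricted to rare transcripts, and 92 of the 1548 genes over 100 CPM were among them. Without C2mimCl replicate 1 the shares called in the 4 classes were 8.91%, 22.6%, 33.3% and 43.0%, beside 11.4%, 25.4%, 34.3% and 41.7% with it.

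**Figure D4:**
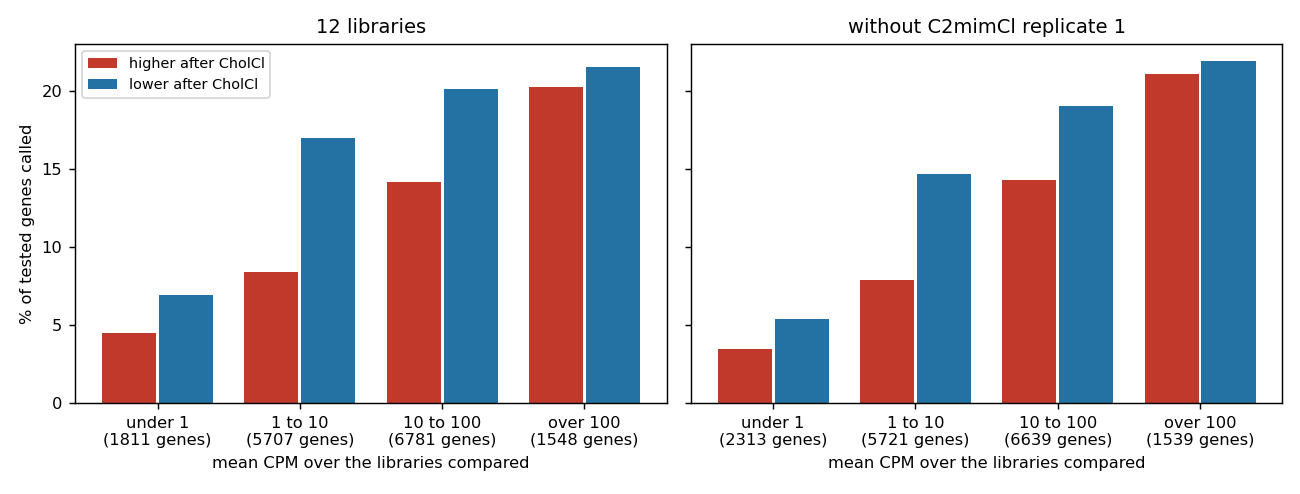
Share of tested genes called higher and lower after CholCl than after C2mimCl (vertical, % of the class) by mean CPM (horizontal), with all libraries on the left and without C2mimCl replicate 1 on the right. In the class of 1 to 10 CPM 17.0% were lower and 8.38% higher with all libraries, while over 100 CPM the bars are nearly level at 21.5% and 20.2%.

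The 100 genes with the highest mean level over the 6 libraries were each above a mean of 930.7 CPM or at it. After CholCl 17 were higher and 27 lower, where 11.6% and 17.6% of all genes tested were. In the class over 100 CPM these shares were 20.2% and 21.5%. Of the 17 and 27, 9 and 13 differed by 2-fold or more, beside 726 and 2010 of all 15847 genes tested. Among these 100, 7 were at least 8-fold lower and 0 at least 8-fold higher, where 4.75% and 0.259% of all genes were. For 49 of the 100 the 95% interval stayed inside 2-fold in both directions, beside 42.6% of all genes tested. Their median log2 difference was -0.105, beside -0.0731 for all genes tested. Without C2mimCl replicate 1, 19 of the 100 highest were higher and 24 lower, where 11.1% and 15.8% of all genes tested were. Again 7 were at least 8-fold lower, beside 4.77% of all genes tested.

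The gene with the most reads, Dapma7bEVm011496, took 19.1%, 14.0% and 19.3% of gene reads in the CholCl libraries, against 7.07%, 12.4% and 10.5% in the C2mimCl libraries, with 5.68%, 8.52% and 8.45% in Control. In this share every CholCl library was above every C2mimCl library, by 7.49 percentage points on average (6.02 without C2mimCl replicate 1). An exact two-sided permutation test gave p = 0.1, the smallest that 3 against 3 libraries allow. With C2mimCl replicate 1 left out, the exact two-sided permutation test of this share gave p = 0.2, where 0.1 is the smallest possible. After TMM scaling the groups overlapped, with 131379 CPM in CholCl replicate 2, against 137900 CPM in C2mimCl replicate 2. In the fit across genes its log2 difference of 0.76 with SE 0.28 did not pass the threshold (quasi-likelihood test in edgeR, adjusted p = 0.0671). The 95% interval of 0.13 to 1.38 leaves room for a difference of over 2-fold. Without C2mimCl replicate 1 the log2 difference was 0.50 (quasi-likelihood test in edgeR, adjusted p = 0.16). Over the alternatives that tested for any difference, by edgeR, DESeq2 or limma, the adjusted p ran from 0.0227 to 0.34. The edgeR test against a 2-fold threshold did not call the gene.

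The reads held by the most abundant genes, Dapma7bEVm011496 among them, were also a larger share after CholCl. The 100 most abundant genes of each library held 44.5%, 40.4% and 44.4% of gene reads after CholCl, against 34.0%, 39.5% and 38.02% after C2mimCl, with 31.0%, 32.9% and 34.7% in Control (exact two-sided permutation test of CholCl against C2mimCl, p = 0.1). The mean difference was 5.92 percentage points, below the 7.49 points of Dapma7bEVm011496 alone. On average the excess thus lay in that gene and not in the other genes of the 100. Without C2mimCl replicate 1 the difference was 4.33 points, against 6.02 for that gene. The exact two-sided permutation test of the 100 genes' share then gave p = 0.2, where 0.1 is the smallest possible. Genes with at least 1 read averaged 19924 ± 40.9 after CholCl and 19869 ± 473 after C2mimCl (SD, n = 3 each), a difference within the spread of the C2mimCl libraries (exact two-sided permutation test, p = 1). Without C2mimCl replicate 1, whose library was the deepest of the 6, the C2mimCl mean was 19604 ± 157 (SD, n = 2; exact two-sided permutation test, p = 0.1, the smallest possible), and with libraries thinned to equal reads the means were 19797 ± 94.0 after CholCl and 19537 ± 62.2 after C2mimCl. Reads outside genes were 5.83%, 5.51% and 5.25% of each CholCl library, against 7.61%, 5.83% and 6.14% of each C2mimCl library. With this share as a covariate 1779 genes were higher and 2659 lower, of which 1465 and 2171 were also called without it, and its part in the result was not tested further.

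Genes whose reads came almost wholly from 1 of the salts were few. Of all gene rows, 8 had at least 10 reads in each CholCl library and 3 or fewer over the C2mimCl libraries together, and 24 had at least 10 reads in each C2mimCl library and 3 or fewer over the CholCl libraries. In Control, 22 of the 24 had at least 10 reads in each library, against 0 of the 8. Of the 24 genes, 2 had 0 reads after CholCl, and the one with more reads after C2mimCl was at least 52.4-fold lower after CholCl, taking 3 reads over the CholCl group as the floor, a bound that covers counting error only. Leaving out C2mimCl replicate 1 gave counts of 13 and 50, of which 12 and 46 had 1 to 3 reads after the other salt. With fewer libraries the rule is easier to meet, so these counts are not on the same footing as 8 and 24.

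For many genes the data bounded the difference between the salts to a small one. The 95% interval lay within 2-fold for 6747 genes (42.6%), of which 826 were called and 5921 were not. A further 5300 genes (33.4%) were not called but had intervals reaching past 2-fold, so a difference of that size was not excluded for these. Without C2mimCl replicate 1, 7406 genes (45.7%) had an interval within 2-fold. The CPM of the libraries of the salts did not overlap in 45.8% of the genes tested, and 4373 of the 4625 genes called were among these. Leaving out C2mimCl replicate 1, the share that did not overlap was 61.1%. Fewer libraries make non-overlap easier to reach by chance, so the 2 shares are not on the same footing.

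Individual genes show the patterns at the level of single libraries. Dapma7bEVm018393 had the smallest p of all genes. It had 1.13, 1.32 and 1.61 CPM in the CholCl libraries, against 46.0, 54.0 and 55.3 CPM in the C2mimCl libraries, and 41.2, 40.3 and 33.4 CPM in Control. The CholCl libraries lay far below all the others and C2mimCl replicate 1 lay with its group. The log2 difference was -5.25 with SE 0.18 (quasi-likelihood test in edgeR, adjusted p = 2.3e-07) and -5.34 without C2mimCl replicate 1.

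Dapma7bEVm003073 had the largest fall of the called genes that averaged 2 CPM or more and whose libraries did not overlap between the salts. It had 1, 2 and 2 reads in the CholCl libraries, against 324, 880 and 732 in the C2mimCl libraries, and 362, 365 and 426 in Control. In CPM, C2mimCl replicate 1 at 19.5 lay below the Control libraries at 22.1 to 33.7, and the other C2mimCl libraries at 72.6 and 61.5 lay above them. The log2 difference was -8.58 with SE 0.65 (quasi-likelihood test in edgeR, adjusted p = 8.14e-05), and -8.98 without C2mimCl replicate 1. Its rank rested on the libraries used. By the same rule it was in place 68 without CholCl replicate 3, where the largest fall had a log2 difference of -13.8, in places 5 and 3 without CholCl replicates 1 and 2, and in places 3 and 2 without C2mimCl replicates 2 and 3.

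Dapma7bEVm002214 had the smallest p among genes higher after CholCl. It had 134, 125 and 118 CPM in the CholCl libraries, against 24.8, 26.4 and 20.7 CPM in the C2mimCl libraries, and 36.6, 37.8 and 28.3 CPM in Control. The CholCl libraries were above all others, and C2mimCl was below Control in every library. The log2 difference between the salts was 2.39 with SE 0.15 (quasi-likelihood test in edgeR, adjusted p = 2.28e-05) and 2.41 without C2mimCl replicate 1. By p it was in place 2 among the higher genes without C2mimCl replicate 2, C2mimCl replicate 3 or C12mimCl replicate 3. C2mimCl itself did not differ from Control past the threshold, with a log2 fold change of -0.514 (quasi-likelihood test in edgeR, adjusted p = 0.101).

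Dapma7bEVm018305 had the largest rise under the same rule on level and overlap, and is an example of a gene with Control between the salts. It had 102, 183 and 167 reads in the CholCl libraries, against 1, 1 and 3 in the C2mimCl libraries, and 75, 62 and 27 in Control. The C12mimCl libraries had 1, 0 and 0 reads. No library of CholCl or C2mimCl overlapped with the other of these salts or with Control. The log2 difference was 6.40 with SE 0.55 (quasi-likelihood test in edgeR, adjusted p = 0.00012) and 5.998 without C2mimCl replicate 1, where it was in place 4. It was in places 3 and 5 without C2mimCl replicates 2 and 3. Against Control its log2 fold change was 1.64 after CholCl (quasi-likelihood test in edgeR, adjusted p = 0.00793) and -4.76 after C2mimCl (adjusted p = 0.00607).

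**Figure D5:**
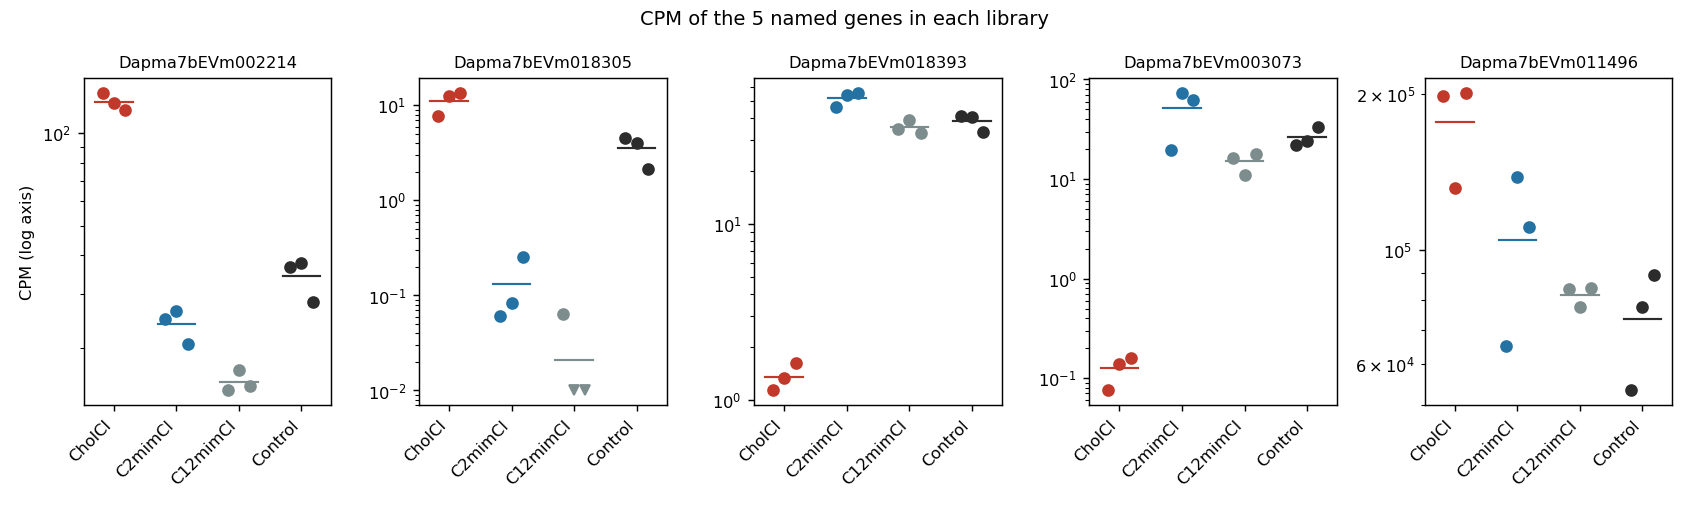
CPM (vertical, log axis, a scale for each gene) in the 3 libraries of each group (points; horizontal lines are group means, triangles are libraries with 0 reads) for the 5 genes named. In the first 4 panels the CholCl and C2mimCl points do not overlap, and in Dapma7bEVm011496 they do, with CholCl replicate 2 at 131379 CPM and C2mimCl replicate 2 at 137900 CPM.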

How the data were processed

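The authors deposited raw whole-number counts per gene, without normalisation, in 46334 gene rows and 5 summary rows per library. Trimmomatic 0.39, STAR 2.7.3a and HTSeq were used, per the submitters' processing notes, on 150 bp paired-end reads of stranded mRNA libraries, per the labels' protocols. The genome build, annotation and strand setting were not stated there, so counts of overlapping, antisense and near-identical genes are uncertain. Library sizes and tests left out the summary rows; reads outside genes were 5.25% to 7.61% of the 6 libraries compared and reads without a unique position 7.79% to 9.10%.

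The analysis used edgeR 4.0.16 under R 4.3.3. The expression filter of edgeR was applied (minimum count 10, minimum total 15), which left 99.9% of gene reads, and libraries were scaled by TMM. A quasi-likelihood model was fitted to all 12 libraries with a mean for each group, and CholCl minus C2mimCl was tested with Benjamini-Hochberg adjustment over all genes kept. Standard errors and 95% intervals came from the log2 difference and its F statistic. Comparisons of Control with each salt came from the same fit. Each replicate was its own vessel, stocked from shared cultures, and the closest pair of replicates differed by a chi-square of 12.3 per degree of freedom, above sampling noise. Alternatives used DESeq2 1.42.0 and limma 3.58.1, other scalings, filters and sets of libraries. Named genes were those with the smallest p in each direction, the largest change in each direction (mean of at least 2 CPM, groups not overlapping, called also without C2mimCl replicate 1) and the most abundant gene. The members, lists and tests were chosen with earlier results of these data known.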

Additional observations from a re-analysis of the deposited data

Results flagged for a closer look

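The 4 genes named for their difference between the salts were marked because the effects of CholCl and C2mimCl against Control differed by a direct test of the difference (edgeR's quasi-likelihood test). The log2 difference of CholCl minus C2mimCl was 2.39 for Dapma7bEVm002214, 6.40 for Dapma7bEVm018305, -5.25 for Dapma7bEVm018393 and -8.58 for Dapma7bEVm003073. Dapma7bEVm018305 moved in opposite directions after the salts, with a log2 fold change against Control of 1.64 after CholCl and -4.76 after C2mimCl.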

How the results depend on the processing

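The 4 named differences kept their direction and stayed called under all 25 alternatives; Dapma7bEVm011496 was called under 4 of 25. Against 1834 higher and 2791 lower genes, upper-quartile scaling gave 3451 higher, limma-voom with library quality weights 3272 higher, the 6 libraries alone 1006 higher and 1248 lower (325 at least 8-fold lower), and a test against a 2-fold threshold 156 higher and 618 lower (428 at least 8-fold lower). With no filter on low counts 62 genes were at least 8-fold higher. Leaving out each of the 12 libraries in turn gave 914 to 1959 higher and 1423 to 2883 lower genes, and 41 to 67 higher and 451 to 838 lower by at least 8-fold. Without both C2mimCl replicate 1 and CholCl replicate 3, added after the data were seen, 941 were at least 8-fold lower. Without C2mimCl replicate 1 alone the counts of controls between the salts were 52 of 67 and 674 of 774, and controls were nearer C2mimCl in 27 of 67. The presence counts, of genes with reads almost wholly from 1 salt, were then 13 and 50. The other alternatives left the 4 counts of called genes within 1.5 times their values; the counts on controls and presence were recomputed only without C2mimCl replicate 1. The causes of the changes were not tested. With the replicate number as a block 1634 genes were higher and 2561 lower. The deviations of same-numbered libraries correlated by -0.0154, -0.231 and 0.21, and not every library correlated best with its own number. With 3 libraries for each salt, these values cannot decide whether same-numbered libraries shared a batch. Rare transcripts limit the comparison, with a median standard error of 0.58 on the log2 scale under 1 CPM.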
